A study of Homo sapiens with 24 samples.

Results

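The 10 genes described here are 9 small Cajal body RNAs (scaRNAs), SCARNA2, SCARNA5, SCARNA6, SCARNA7, SCARNA10, SCARNA12, SCARNA13, SCARNA16 and SCARNA17, and SNHG20, the long noncoding host transcript that contains SCARNA16. They were found by symbol among the 61853 gene rows of the deposited table, 1 row for each symbol. They had been picked after a first reading of the same table, in which SCARNA16 and SNHG20 differed widely between gradient fractions 7 and 8 and fractions 3 and 4 and SCARNA2 made up most of the small nucleolar and Cajal body RNA, so those differences are given below as a description, with no test. The row of SNHG20 shares reads with SCARNA16 and is not separate evidence.

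Small Cajal body RNAs guide the modification of spliceosomal small nuclear RNAs. C/D types direct ribose methylation through fibrillarin, H/ACA types direct the change of uridine to pseudouridine through dyskerin, and some carry both kinds of domain. Most are cut out of introns of host genes, bind their core proteins and are brought to Cajal bodies, nuclear structures built around coilin, by WRAP53.

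The libraries came from 293T, a human embryonic kidney line. Endogenous DIS3, a nuclease of the RNA exosome with exonuclease and endonuclease centres, was knocked down with the short hairpin RNA DIS3-sh2 and restored as DIS3 WT or as DIS3 D146N, which replaces an aspartate of the endonuclease centre. RNA labelled as cytoplasmic was spun through sucrose, and its fractions 3, 4, 7 and 8 were depleted of ribosomal RNA and sequenced. Each combination of allele and fraction, 8 in all, had 3 biological replicates. All groups shared the same hairpin, no group kept its own DIS3 untouched, and the labels give neither the number of clones nor the end from which fractions were counted.

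Library totals ran from 21.2 to 33.0 M counts. Of the genes listed as known in 293 cells, VIM was read at 15.9 to 227 CPM (counts scaled per 1 M of the library total) and KRT8 and KRT18 were above 1 CPM in every library, while NEFL, NEFM and PAX2 stayed at or below 3.11 CPM. The blood marker PTPRC and the endothelial marker CDH5 stayed at or below 0.222 CPM, but the liver gene ALB was read at 4.57 to 142 CPM. The targeted gene, DIS3, was read at 91.4 to 112 CPM in WT fractions 3 and 4 and 4.54 to 6.28 in fractions 7 and 8, and at 7.79 to 9.63 and 86.7 to 115 CPM in D146N, which includes any rescue transcript and, with no library free of the hairpin, does not show the knockdown. Replicate 3 of WT fraction 8 stood apart from its group, with a median absolute log2 difference of 0.360 from the other two libraries against 0.0733 to 0.209 in the other 23 libraries. Relative to the mean of the other two, that library held 2.06 times as much SCARNA17 and 0.755 times as much of both SCARNA16 and SNHG20. The values of the members it moves most are given with and without it, a choice made after seeing the data. In bulk libraries of this kind, fewer cells and less RNA per cell cannot be told apart.

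Positions are those of RefSeq on GRCh38.p14, the same build as the hg38 named in the submitters' processing notes. SCARNA2 (ENSG00000278249.1, chr1:109100193-109100612), which guides ribose methylation of U2, overlaps no other RefSeq gene. SCARNA5 (chr2:233275726-233276003) and SCARNA6 (chr2:233288676-233288941) both lie within the span of ATG16L1, an autophagy gene. SCARNA7 (chr3:160514907-160515236), a methylation guide for U1, lies within KPNA4, which encodes an importin. SCARNA10 (chr12:6510222-6510551), or U85, a guide for U5 that has both kinds of domain, lies within the condensin gene NCAPD2. SCARNA12 (chr12:6967337-6967606) lies within the prohibitin gene PHB2, and SCARNA13 (chr14:95533355-95533629), an H/ACA guide, within the noncoding gene SNHG10. SCARNA17 (chr18:49814023-49814443), a methylation guide for U4, starts at the same base as the noncoding gene SNHG22. SCARNA16 (ENSG00000275143.1, chr17:77089307-77089493), the H/ACA guide ACA47 for U1, is the shortest of the 9 at 187 bases and lies within SNHG20 (ENSG00000234912.12, chr17:77088643-77094986) and within the span of SEC14L1.

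Sequence is shown for SCARNA16 and SCARNA17, parts of which the sequence tables used here held within the entries of an overlapping gene. The 81-base hairpin of the microRNA gene MIR6516 (chr17:77089417-77089497, plus strand) covers the last 77 bases of SCARNA16 and runs 4 bases past its end. Both mature arms lie inside SCARNA16, and neither seed occurs in any other of the 2370 mature human microRNAs of the RefSeq table. Below, capitals mark the ACA box, which in H/ACA RNAs stands close to the 3′ end and here ends 3 bases before the annotated end of SCARNA16, and, in the mature arms, the seed (bases 2 to 8). In the window around the start of SNHG22 (chr18:49813773-49814072, plus strand), capitals mark the 50 bases that are the start of SNHG22 and of SCARNA17 alike. The sequences are from RefSeq, GRCh38.p14, written 5′ to 3′.
SCARNA16 3-prime end: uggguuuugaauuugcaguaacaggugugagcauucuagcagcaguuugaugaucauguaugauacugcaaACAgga
hsa-miR-6516-5p: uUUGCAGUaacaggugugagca
hsa-miR-6516-3p: aUCAUGUAugauacugcaaaca
SNHG22 start: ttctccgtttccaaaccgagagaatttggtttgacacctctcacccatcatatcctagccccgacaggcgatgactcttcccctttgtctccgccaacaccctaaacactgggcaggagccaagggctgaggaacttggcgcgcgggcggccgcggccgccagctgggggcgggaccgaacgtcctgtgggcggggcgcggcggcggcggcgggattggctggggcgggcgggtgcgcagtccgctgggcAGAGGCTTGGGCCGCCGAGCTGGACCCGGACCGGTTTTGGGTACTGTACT

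These overlaps reached the counts. The deposited values were in part fractions, as when a read that fits several features is divided among them. The row of MIR6516 held between 85.3% and 108% of the SCARNA16 count in each library, and their summed difference over all libraries was 0.940% of the SCARNA16 counts. The row ENSG00000270066.3 equalled SCARNA2 in 18 of 24 libraries and differed by at most 4 counts in the others, and the row ENSG00000276232.1 differed from SCARNA10 by 0.0725% in sum. These rows repeat a member and were not counted as further genes. The levels of SCARNA2, SCARNA10 and SCARNA16 are uncertain by the part of their reads that such rows took. Host rows may likewise have taken part of the reads of SCARNA12, SCARNA13 and SCARNA17, whose overlap with a host is described below. Whether counting used the strand of the reads is not given in the sources used here.

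SCARNA2 was the most abundant of the 9 scaRNAs in every group, and its level depended on fraction and genotype together. In WT it stood at 24819, 25361 and 25070 CPM in fraction 3, at 24617, 25717 and 25977 in fraction 4, at 854, 923 and 894 in fraction 7 and at 888, 887 and 1157 in fraction 8. The D146N libraries gave 1705, 1807 and 1723 CPM in fraction 3, 1733, 1593 and 1700 in fraction 4, 31594, 32362 and 33970 in fraction 7, and 33884, 34536 and 36207 in fraction 8. In WT the 6 libraries of fractions 3 and 4 were thus all high and the 6 of fractions 7 and 8 all low, and in D146N it was the other way round, with no overlap. The mean over fractions 7 and 8 was 27.0-fold lower than over fractions 3 and 4 in WT, and 19.7-fold higher in D146N.

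SCARNA16 had the opposite pattern. In WT it was read at 0.940, 0.443 and 0.673 CPM in fraction 3 and at 0.909, 0.898 and 1.24 in fraction 4, against 117, 118 and 123 in fraction 7 and 117, 121 and 90.1 in fraction 8. In D146N it was read at 25.2, 21.9 and 23.1 CPM in fraction 3, 22.4, 22.8 and 21.4 in fraction 4, 0.521, 0.597 and 0.755 in fraction 7, and 0.574, 1.14 and 0.510 in fraction 8. The high side was fractions 7 and 8 in WT and fractions 3 and 4 in D146N, and the high side of D146N lay below that of WT in every library. The low sides were near 1 CPM in both genotypes, where the rounded counts were 12 to 27 per library in WT and 11 to 26 in D146N. The count of 12 in WT fraction 3, replicate 2, has an exact 95% Poisson interval of 6.20 to 21.0 counts, which covers counting error only. The ratio of mean CPM between fractions 7 and 8 and fractions 3 and 4 was 134 in WT (140.1 without replicate 3 of fraction 8), and in D146N fractions 7 and 8 were 33.4-fold lower.

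SNHG20 followed SCARNA16. In WT it was read at 6.52, 8.06 and 7.31 CPM in fraction 3, 6.97, 7.80 and 9.08 in fraction 4, 131, 134 and 137 in fraction 7, and 133, 137 and 102 in fraction 8. In D146N the values were 31.3, 27.6 and 28.5 CPM in fraction 3, 27.5, 28.3 and 26.4 in fraction 4, 7.78, 9.48 and 9.83 in fraction 7, and 8.22, 7.79 and 8.42 in fraction 8. The sides did not overlap in either genotype, and the ratio of mean CPM was 16.9 in WT (17.6 without replicate 3 of fraction 8).

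SCARNA17 ran with SCARNA2. In WT it stood at 223, 228 and 225 CPM in fraction 3, 221, 222 and 241 in fraction 4, 8.56, 9.59 and 9.36 in fraction 7, and 9.40, 8.97 and 18.9 in fraction 8. The D146N values were 16.9, 17.8 and 17.8 CPM in fraction 3, 17.1, 16.2 and 19.0 in fraction 4, 241, 259 and 253 in fraction 7, and 258, 270 and 274 in fraction 8. All low libraries of WT but replicate 3 of fraction 8 were below 10 CPM, and WT fractions 7 and 8 were 21.0-fold lower than fractions 3 and 4 (24.7-fold without that library). The mean of WT fraction 8 was 12.4 CPM with that library and 9.19 without it.

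SCARNA7 was the scaRNA whose CPM moved in the same direction as SCARNA16 but by little. In WT it stood at 393, 363 and 380 CPM in fraction 3, 380, 363 and 372 in fraction 4, 458, 528 and 546 in fraction 7, and 548, 550 and 651 in fraction 8. With D146N it measured 401, 392 and 418 CPM in fraction 3, 447, 410 and 431 in fraction 4, 285, 274 and 282 in fraction 7, and 281, 261 and 234 in fraction 8. Fractions 7 and 8 were 1.46-fold higher in WT and 1.55-fold lower in D146N, again with no library of one side inside the range of the other.

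The other 5 scaRNAs had lower CPM in WT fractions 7 and 8 than in fractions 3 and 4. The difference was 7.15-fold for SCARNA13, 3.77-fold for SCARNA12, 3.01-fold for SCARNA10, 2.23-fold for SCARNA6 and 1.14-fold for SCARNA5. In D146N the same RNAs were higher in fractions 7 and 8, by 9.15-fold for SCARNA13, 3.39-fold for SCARNA12, 4.00-fold for SCARNA10, 4.03-fold for SCARNA6 and 3.24-fold for SCARNA5. SCARNA5 was thus nearly level across the WT fractions, at group means of 388 to 444 CPM, but not across those of D146N, where fractions 3 and 4 held 140 and 148 CPM and fractions 7 and 8 held 468 and 466.

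**Figure D1:**
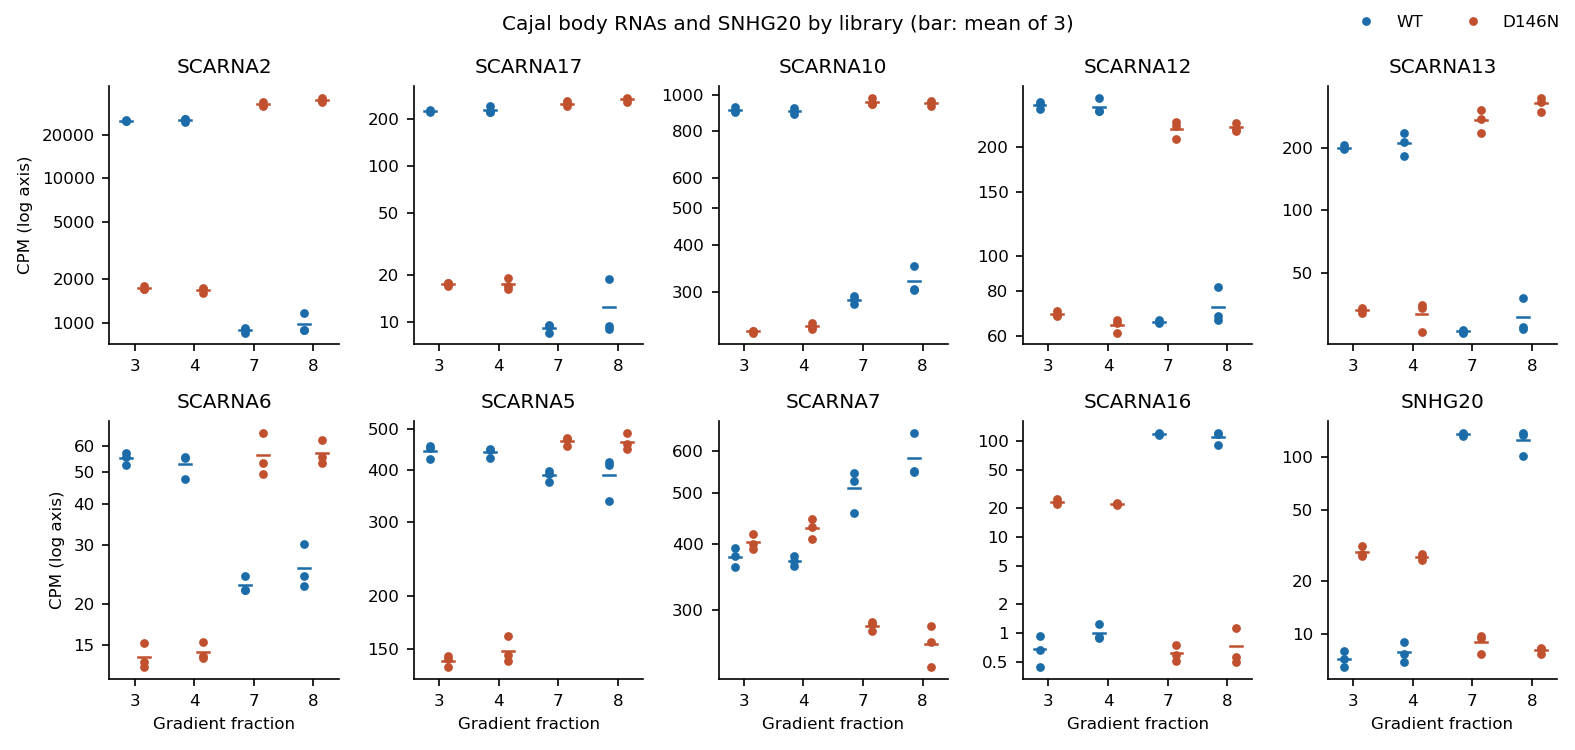
CPM (log axis, a separate range for each panel) of the 9 scaRNAs and SNHG20 in each of the 24 libraries, by gradient fraction; points are libraries and bars the mean of 3, blue for WT and red for D146N. In SCARNA2 and the other RNAs of the top row WT is high in fractions 3 and 4 and D146N in fractions 7 and 8, while SCARNA7, SCARNA16 and SNHG20 have the reverse order within each genotype.

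In none of the 10 members did the libraries of fractions 7 and 8 overlap with those of fractions 3 and 4, in WT or in D146N. Over the 18907 genes that passed the filter on low counts, as all 10 members did, 78.8% had no overlap in WT and 84.0% had none in D146N. In WT 7 members were lower in fractions 7 and 8 and 3 (SCARNA7, SCARNA16 and SNHG20) higher, beside 73.5% of genes lower and 5.31% higher. In D146N the 7 were higher and the 3 lower, beside 81.1% of genes higher and 2.90% lower. The combination seen in SCARNA7, SCARNA16 and SNHG20, higher in WT and lower in D146N, was found in 514 genes (2.72%), and the combination of the other 7 in 13398 genes (70.9%). Nothing is read from these shares for the members, which were chosen on the same contrasts.

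Compared per kilobase of gene span, the order of the 9 scaRNAs differed between groups. These ranks are uncertain by the reads that overlapping rows may have taken, as given above. In WT fraction 3 SCARNA2 led with 59722 ± 645 CPM per kb (SD, n = 3), followed by SCARNA10 at 2767 ± 46.1, SCARNA5 at 1597 ± 59.8 and SCARNA7 at 1148 ± 46.7, and SCARNA16 was last at 3.66 ± 1.33. Each RNA of that order lay above the next in all libraries. In WT fraction 7 SCARNA2 still led, at 2120 ± 82.8 CPM per kb, but SCARNA7 held rank 2 at 1548 ± 141, SCARNA16 held rank 5 at 637 ± 17.5 and SCARNA17 last at 21.8 ± 1.28. There the libraries of SCARNA7 and SCARNA5 (1396 ± 43.4) overlapped. In D146N fraction 3 SCARNA16 held rank 6 at 125 ± 8.83 CPM per kb and overlapped with SCARNA13 at 121 ± 3.17, and in D146N fraction 7 it was last at 3.34 ± 0.638.

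Together the 9 scaRNAs took 2.76% ± 0.0254 of all counts in WT fraction 3 (SD, n = 3) and 2.79% ± 0.0759 in fraction 4, but 0.232% ± 0.00998 in fraction 7 and 0.252% ± 0.0205 in fraction 8. In D146N they took 0.268% ± 0.00402, 0.265% ± 0.0101, 3.52% ± 0.126 and 3.74% ± 0.117 in the same order. SCARNA2 made up 91.0% ± 0.147 of the scaRNA counts in WT fraction 3 and 92.9% ± 0.113 in D146N fraction 7, the sides where scaRNAs were abundant. It made up 38.4% ± 0.721 in WT fraction 7 and 65.1% ± 1.10 in D146N fraction 3. On those sides SCARNA7 came next, with 22.0% ± 1.11 in WT fraction 7 and 15.1% ± 0.614 in D146N fraction 3. SCARNA16 took 5.14% ± 0.161 of the scaRNA counts in WT fraction 7 and 0.00249% ± 0.000924 in WT fraction 3.

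**Figure D2:**
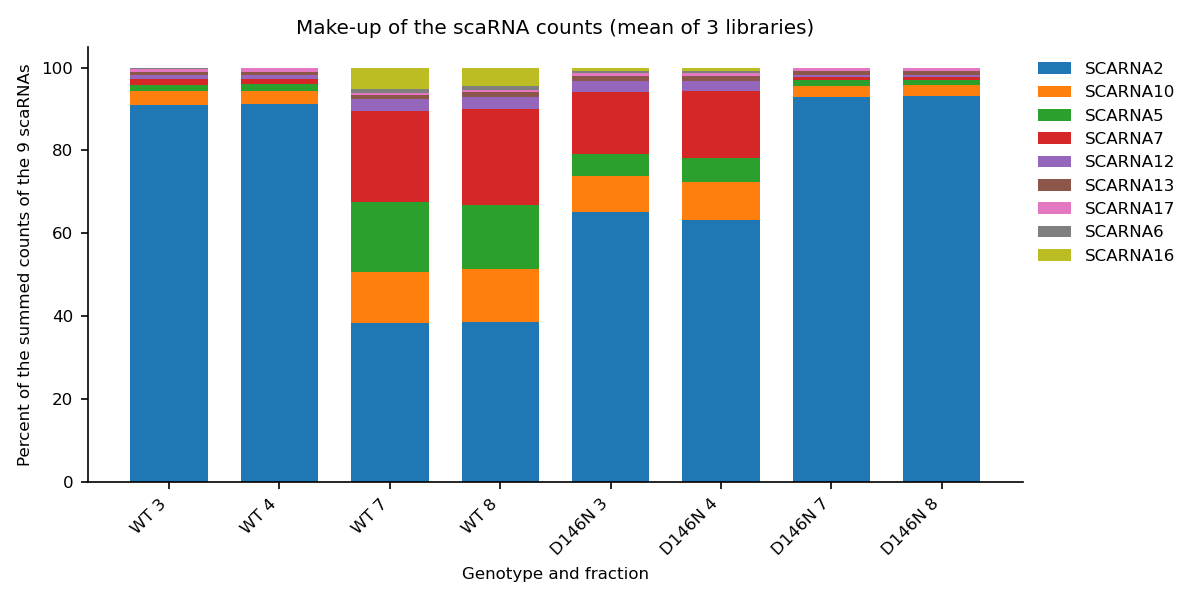
Percent of the summed counts of the 9 scaRNAs taken by each (stacked bars, mean of 3 libraries) in the 8 groups of genotype and fraction. SCARNA2 fills over 90% of the bar in WT fractions 3 and 4 and D146N fractions 7 and 8, and 38.4% to 65.1% in the other 4 groups, where SCARNA7, SCARNA5 and SCARNA10 take most of the rest.

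Most of the genes tested shifted in CPM with the side of the gradient, so values were also scaled with TMM, a factor per library that centres the typical gene. The factors averaged 2.51 in WT fractions 3 and 4 each, 0.365 in WT fraction 7, 0.426 in WT fraction 8, 0.366 in D146N fractions 3 and 4 each, 2.81 in D146N fraction 7 and 2.76 in D146N fraction 8. The median log2 fold change of all genes tested between fractions 7 and 8 and fractions 3 and 4 was -2.83 on library totals and -0.18 after TMM in WT, and 3.00 and 0.10 in D146N. A value on library totals compares shares of the library, and a value after TMM compares a gene with the typical gene.

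After TMM, the log2 fold change of fractions 7 and 8 against 3 and 4 in WT was 9.80 (SE 0.20) for SCARNA16, 6.78 (SE 0.14) for SNHG20, 3.22 (SE 0.07) for SCARNA7, 2.51 (SE 0.09) for SCARNA5, 1.52 (SE 0.07) for SCARNA6, 1.09 (SE 0.06) for SCARNA10 and 0.76 (SE 0.06) for SCARNA12. It was -0.17 (SE 0.07) for SCARNA13, -1.75 (SE 0.07) for SCARNA17 and -2.08 (SE 0.07) for SCARNA2. Without replicate 3 of WT fraction 8, SCARNA16 was at 9.91, SNHG20 at 6.89 and SCARNA17 at -1.88. In D146N the signs were the opposite for all 10, from -7.96 (SE 0.20) for SCARNA16, -4.65 (SE 0.13) for SNHG20 and -3.56 (SE 0.07) for SCARNA7 to 1.38 (SE 0.07) for SCARNA2. The median of the members was 1.31 in WT and -1.05 in D146N. Of the genes tested, 73.9% were called in WT and 60.2% in D146N at an adjusted p under 0.05 (edgeR's quasi-likelihood test with Benjamini-Hochberg adjustment), from which nothing is read for the members.

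The scale set the sign for 4 of the 10. On library totals SCARNA5, SCARNA6, SCARNA10 and SCARNA12 were lower in WT fractions 7 and 8, with log2 fold changes of -0.19, -1.16, -1.59 and -1.92, whereas after TMM they were above the typical gene. SCARNA7, SCARNA16 and SNHG20 were higher on both scales in WT and lower on both in D146N. SCARNA2, SCARNA13 and SCARNA17 were lower on both in WT and higher on both in D146N. Across the 9 scaRNAs the log2 ratio of CPM was lower in WT for longer spans (Pearson r -0.79, Spearman rho -0.58) and higher in D146N (0.72 and 0.54). These are descriptions over 9 RNAs of the same libraries, and SCARNA16, the shortest, is the far point.

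**Figure D3:**
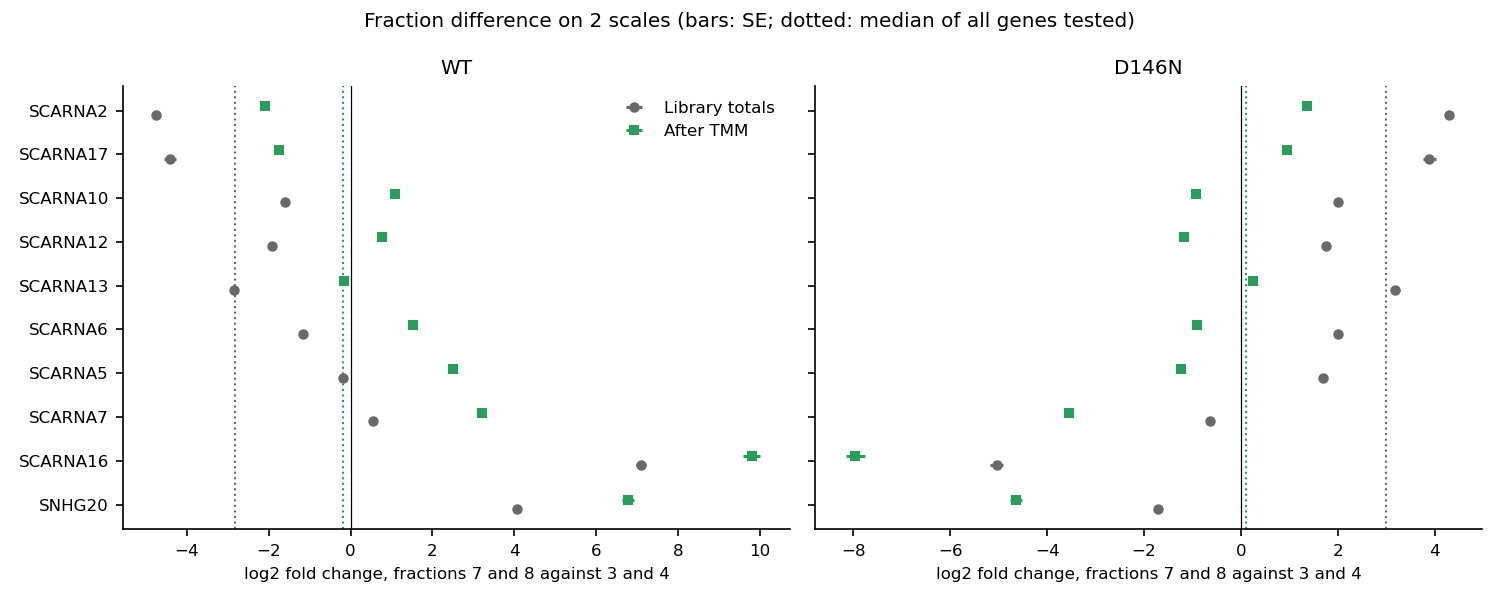
Log2 fold change of fractions 7 and 8 against 3 and 4 in WT (left) and D146N (right) for each member, on library totals (dots) and after TMM (squares), with bars for the SE and dotted lines for the median of all genes on each scale. SCARNA16 lies farthest from the typical gene in both genotypes, at 9.80 and -7.96 after TMM, and SCARNA5, SCARNA6, SCARNA10 and SCARNA12 lie on different sides of 0 on the 2 scales.

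A ratio of a scaRNA to its host within one library does not depend on scaling. On the high sides the SCARNA16 row was 88.9% ± 0.846 (WT fraction 7; SD, n = 3), 88.4% ± 0.0352 (WT fraction 8), 80.3% ± 0.724 (D146N fraction 3) and 81.1% ± 0.430 (D146N fraction 4) of the SNHG20 row. On the low sides it was 9.71% ± 4.48 (WT fraction 3), 12.7% ± 1.11 (WT fraction 4), 6.89% ± 0.708 (D146N fraction 7) and 9.21% ± 4.69 (D146N fraction 8). What remained of SNHG20 after subtracting the SCARNA16 count was 6.61, 6.93, 14.9 and 14.4 CPM in WT fractions 3, 4, 7 and 8, and 5.73, 5.17, 8.41 and 7.40 CPM in D146N. This remainder is the host's own count only if each shared read gave both rows the same part. It was 2.16 times as high in WT fractions 7 and 8 as in fractions 3 and 4, against 134 for SCARNA16. In D146N it was 1.45 times as high in fractions 7 and 8, in CPM the opposite direction to SCARNA16. Unlike the ratio, this remainder depends on scaling. The median log2 fold change of all genes on library totals was -2.83 in WT and 3.00 in D146N. Beside that typical gene, the remainder was higher in WT fractions 7 and 8 and lower in D146N fractions 7 and 8, as SCARNA16 was.

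The other rows that overlap a host behaved in different ways. SCARNA17 was 58.1% to 63.4% of the SNHG22 row in all 8 group means, so both rows moved together. SCARNA13 was 93.7% ± 0.385 of SNHG10 in WT fraction 3 and 82.3% ± 1.29 in WT fraction 7. For D146N these shares were 88.5% ± 0.544 and 95.5% ± 0.680. For this pair the difference between the rows was a whole number, within 0.02, in 15 of 24 libraries, against 3 for each row alone. It was whole in 6 for SCARNA16 and SNHG20, 6 for SCARNA17 and SNHG22 and 9 for SCARNA12 and PHB2. For SCARNA5, SCARNA6, SCARNA7 and SCARNA10, where nothing was subtracted from the host, it was whole in 5, 10, 4 and 1. For SCARNA16 and SNHG20, whole differences thus do not settle whether shared reads gave both rows the same part. SCARNA12 took up 71.1% ± 0.649 of PHB2 in WT fraction 3, 84.4% ± 0.231 in WT fraction 7, 83.2% ± 1.05 in D146N fraction 3 and 63.7% ± 2.1 in D146N fraction 7. Shares of SCARNA12 and SCARNA13 in WT fraction 8 ranged from 70.6% to 84.7% and from 65.4% to 82.9%, the lowest of each in the library that stands apart.

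SCARNA5, SCARNA6, SCARNA7 and SCARNA10 lie within protein-coding genes whose rows held fewer counts than the scaRNA itself, and the mean ratio of all 4 to the host was higher on the side where SCARNA16 was high. SCARNA7 had 7.48 counts per KPNA4 count in WT fractions 3 and 4 (geometric mean of 6 libraries, range 7.21 to 7.88) and 105 in fractions 7 and 8 (96.7 to 117). In D146N it had 71.6 (64.1 to 80.1) and 4.95 (4.59 to 5.38). SCARNA10 had 12.7 counts per NCAPD2 count (12.0 to 14.6) and 51.0 (45.3 to 56.9) in WT, and 35.5 and 13.1 in D146N. SCARNA5 and SCARNA6, which share the host row of ATG16L1 and so are not independent, had ratios 3.46-fold and 1.76-fold higher in WT fractions 7 and 8. In D146N they were 1.84-fold and 1.48-fold lower there, and for SCARNA6 the libraries overlapped, with ratios of 6.66 to 12.9 in fractions 3 and 4 and 5.73 to 6.84 in fractions 7 and 8. ATG16L1 was read at 1.17 to 10.9 CPM, which makes its ratios less precise than those of KPNA4 and NCAPD2.

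**Figure D4:**
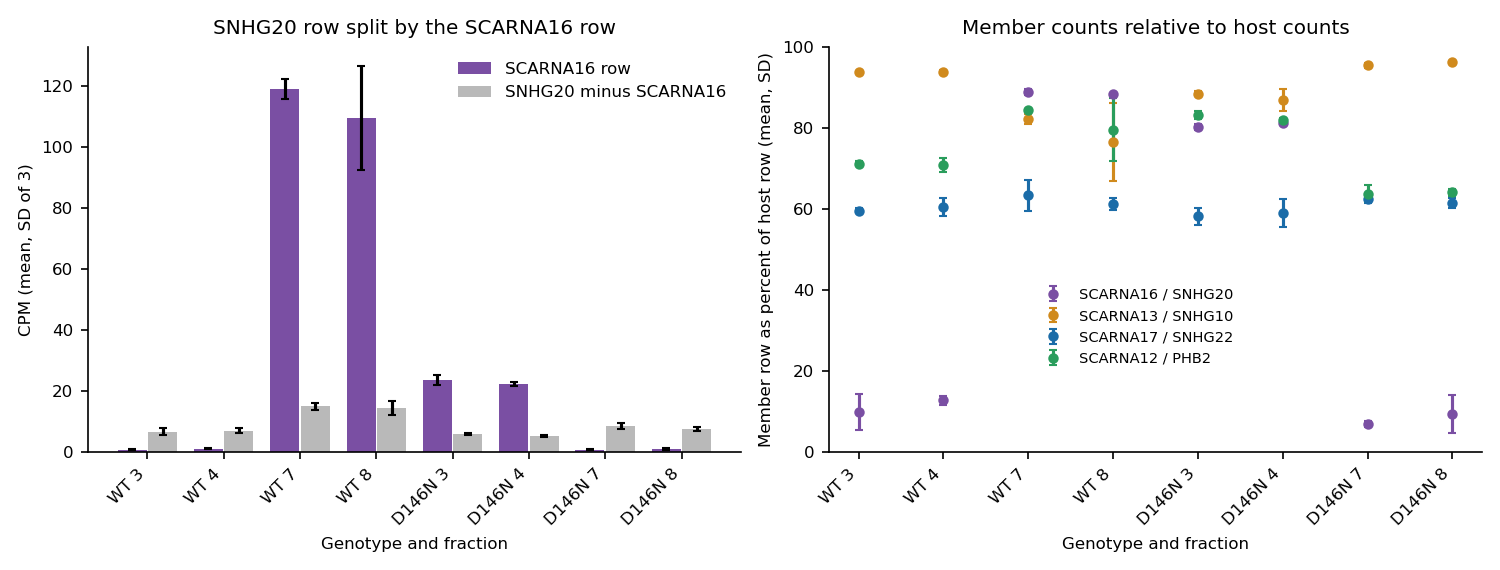
Left, CPM of the SCARNA16 row and of the SNHG20 row minus it (bars from 0, mean and SD of 3 libraries) in the 8 groups; right, 4 scaRNA rows as a percent of their host rows (mean and SD). SCARNA16 is 80.3% to 88.9% of SNHG20 in WT fractions 7 and 8 and D146N fractions 3 and 4 and at most 12.7% elsewhere, while SCARNA17 stays at 58.1% to 63.4% of SNHG22.

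Because the low and high sides were exchanged between genotypes, D146N was also set beside WT across the exchange. Whether the allele or the end from which fractions were numbered set this exchange cannot be told apart. In D146N fractions 7 and 8 against WT fractions 3 and 4, the log2 fold changes after TMM ran from -0.63 (SE 0.07) for SCARNA7 and -0.41 (SE 0.30) for SCARNA16 to 0.39 (SE 0.07) for SCARNA13. In CPM, 4 members were higher and 2 lower without overlap, against 13.0% and 3.88% of genes. In D146N fractions 3 and 4 against WT fractions 7 and 8 the spread was wider. SCARNA16 stood at -2.25 (SE 0.13), SNHG20 at -2.12 (SE 0.11) and SCARNA5 at -1.35 (SE 0.09), while SCARNA17 stood at 0.83 (SE 0.07) and SCARNA2 at 0.98 (SE 0.07). In CPM 1 member was higher and 6 lower without overlap, against 3.82% and 9.63% of genes. Without replicate 3 of WT fraction 8 SCARNA17 no longer overlapped, so that 2 members were higher and 6 lower, against 8.84% and 10.3% of genes, and SCARNA16 stood at -2.37, SNHG20 at -2.24 and SCARNA17 at 0.94 after TMM. Within one fraction the genotypes differed by up to -10.49 (SE 0.29), for SCARNA16 in fraction 7, and 7.87 (SE 0.28), for the same RNA in fraction 3.

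Neighbouring fractions, which the choice of members did not use, were compared with edgeR's quasi-likelihood test. No member and none of the 18907 genes passed an adjusted p of 0.05 in WT fraction 4 against 3, WT fraction 8 against 7, D146N fraction 4 against 3 or D146N fraction 8 against 7, a background of 0% in each. At an unadjusted p under 0.05 there were 830, 1727, 765 and 653 genes in that order, and DESeq2 called 0, 11, 0 and 0 with adjustment. The widest member estimates were for SCARNA16, which has few counts on the low side, with 0.56 (95% interval -0.22 to 1.35) in WT fraction 4 against 3 and 0.28 (-0.59 to 1.15) in D146N fraction 8 against 7. In WT fraction 8 against 7 SCARNA16 was at -0.28 (-0.62 to 0.07), and at -0.03 without replicate 3 of fraction 8. SCARNA13 in D146N fraction 8 against 7 was at 0.29 (0.10 to 0.49, unadjusted p 0.0053, edgeR adjusted p 1), from 235, 274 and 304 CPM in fraction 7 to 297, 347 and 332 in fraction 8, where the ranges overlap. For SCARNA2 the intervals of the 4 comparisons lay between -0.27 and 0.31.

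The genotypes were then compared over the mean of the 4 within-fraction log2 differences, which weighs each fraction alike and does not depend on which side is called first. In all members but SCARNA13 the differences within fractions were of opposite sign on the 2 sides and cancel in part in this mean. SCARNA13 was higher in D146N in each fraction, at 0.19, 0.06, 0.42 and 0.69 in fractions 3, 4, 7 and 8. The differences of SCARNA16 within fractions were known when the members were picked, and SNHG20 shares its reads. The means of these 2, -1.33 (SE 0.16) and -1.05 (SE 0.08), are thus a description with no test. The same holds for SCARNA2 at 0.62 (SE 0.05), as its large share of the counts was known by then. Of the genes tested 23.2% were called, 13.5% higher and 9.66% lower, a balance that turned with median-of-ratios factors (11.1% and 11.5%) and with DESeq2 (11.8% and 12.9%). The summed share of small nucleolar and Cajal body RNA, to which the other members belong, was also known by then. The p-values of these others are thus not free of the choice of members. They all passed, SCARNA17 and SCARNA13 higher and 5 lower. Higher in D146N were SCARNA17 at 0.44 (SE 0.05, edgeR adjusted p 2.14e-08) and SCARNA13 at 0.34 (SE 0.05, 3.58e-06). Lower were SCARNA5 at -0.71 (SE 0.06, 1.28e-10), SCARNA7 at -0.46 (SE 0.05, 4.45e-09) and SCARNA6 at -0.38 (SE 0.05, 3.97e-07). SCARNA10 at -0.16 (SE 0.04, 0.00719) and SCARNA12 at -0.15 (SE 0.04, 0.00528) were lower by little. Such a mean can rest on a single side of the exchange. In D146N fractions 7 and 8 against WT fractions 3 and 4, SCARNA17 was at 0.04 and SCARNA5 at -0.07. SCARNA6 and SCARNA10 were both at -0.08 there. D146N fractions 3 and 4 against WT fractions 7 and 8 gave 0.83, -1.35, -0.68 and -0.24 for these 4. On the same comparisons SCARNA12 was at -0.35 and 0.05, SCARNA13 at 0.39 and 0.29, and SCARNA7 at -0.63 and -0.29. Of the 6 other host genes, SNHG22 (0.46, edgeR adjusted p 3.31e-08) and SNHG10 (0.25, 0.000469), whose rows share reads with SCARNA17 and SCARNA13, rose, ATG16L1 (-0.28, 0.0471) fell, and 3 did not pass.

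When the 4 fractions of a genotype and replicate number were summed, each fraction weighed by its counts. SCARNA10 was then at -0.08 and no longer passed (edgeR adjusted p 0.0989). The other tested members kept direction and call, SCARNA17 at 0.22 and SCARNA6 at -0.23 with smaller values than in the mean. In the sums 27.4% of genes were called, 14.9% higher and 12.5% lower. SCARNA2 was at 0.44, SCARNA16 at -2.48 and SNHG20 at -2.1, again as a description. The 4 fractions are part of a gradient, so neither the mean nor the sum is the amount in the cell.

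**Figure D5:**
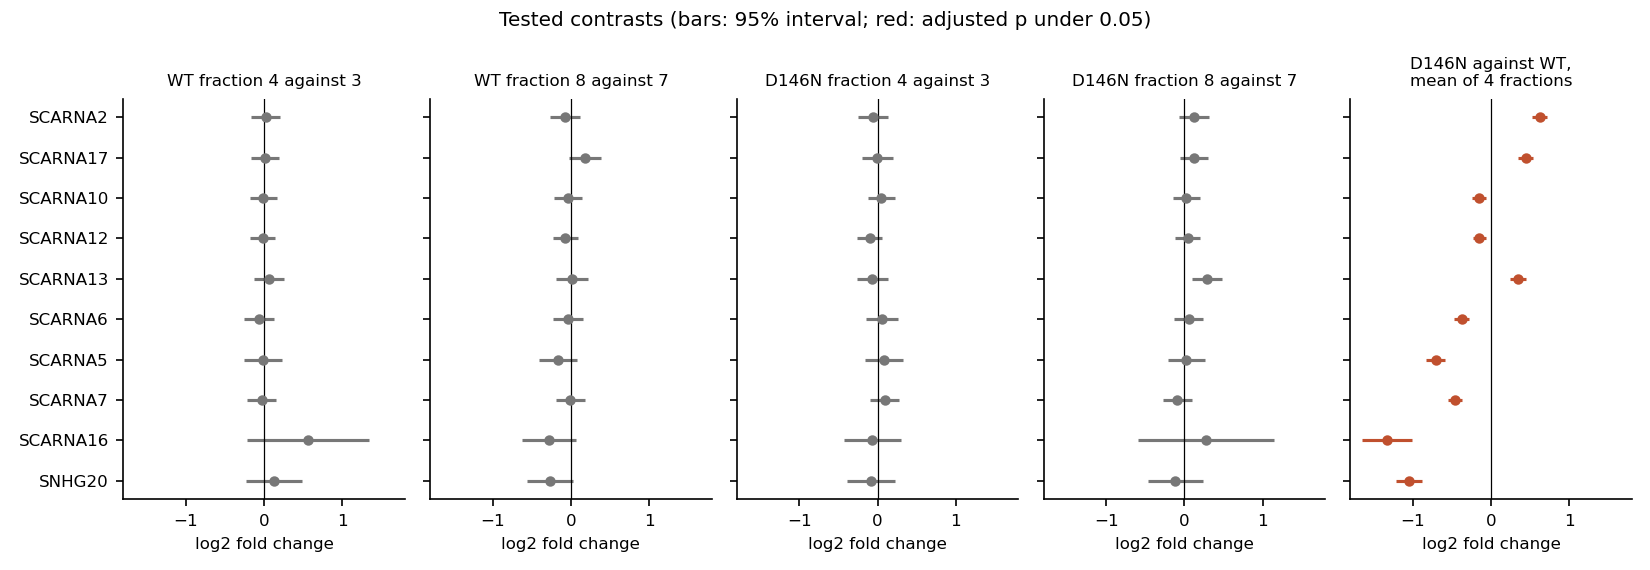
Log2 fold change after TMM with its 95% interval for each member in the 5 tested comparisons; red marks an adjusted p under 0.05 and grey one above it. All intervals but that of SCARNA13 in D146N fraction 8 against 7 include 0 between neighbouring fractions. All exclude 0 in the genotype comparison, with 3 members higher and 7 lower in D146N, beside 13.5% and 9.66% of all genes called. Of these members, SCARNA2, SCARNA16 and SNHG20 are a description only, and their red marks there stand for no test.

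The machinery that makes and keeps scaRNAs was read from a list of 42 genes of scaRNA proteins, their assembly and processing factors, Cajal body components and telomerase, all of them tested. In the genotype mean 7 of the 42 rose, 4 fell and 31 did not pass, with a median of 0.05 beside 0.01 for all genes, of which 13.5% rose and 9.66% fell. TCOF1 (0.39, edgeR adjusted p 4.14e-07) and NOLC1 (0.26, 1.26e-05), nucleolar phosphoproteins, were among those higher, and so was GAR1 (0.35, 0.00643), an H/ACA core protein. PARN, a deadenylase that trims the ends of H/ACA RNAs, was at -0.38 (0.00105). These 4 were chosen after their values were seen. Among the genes set for naming, COIL (coilin) was at 0.16, WRAP53 at 0.04, DKC1 (dyskerin) at 0.11, NHP2 at 0.09, NOP10 at -0.14 and FBL (fibrillarin) at 0.24, none of which passed (edgeR adjusted p 0.0719 to 0.848).

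Between fractions 7 and 8 and fractions 3 and 4 of WT, 16 of the 42 rose, 20 fell and 6 did not pass (median -0.12 beside -0.18 for all genes), where 34.6% of all genes rose and 39.3% fell. In D146N 18 rose, 15 fell and 9 did not pass, where 29.9% of all genes rose and 30.3% fell. The H/ACA proteins did not share a direction. After TMM the small NHP2 and NOP10 mRNAs were at 2.89 and 2.61 in WT and DKC1 at -0.61, and COIL at -1.23 (all with edgeR adjusted p of 1.16e-10 or below). FBL was read at 6.63 ± 0.385 CPM in WT fraction 7 (SD, n = 3) and 19.3 ± 22.0 in fraction 8, where replicates 1, 2 and 3 had 6.26, 6.85 and 44.7 CPM, and its difference between fractions 8 and 7 did not pass (1.15, edgeR adjusted p 0.439).

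TERC, the telomerase RNA, which is also a Cajal body H/ACA RNA, had the highest WT and the lowest D146N value of the 42 between the sides and was chosen for that after the values were seen. It was read at 247 ± 2.43 and 246 ± 2.14 CPM in WT fractions 3 and 4 and at 732 ± 28.9 and 670 ± 80.9 in fractions 7 and 8, and at 525 ± 12.1, 503 ± 27.6, 281 ± 17.1 and 293 ± 8.28 in D146N. Its log2 fold change after TMM was 4.21 in WT and -3.76 in D146N, and -0.15 in the genotype mean (edgeR adjusted p 0.0815).

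A further 16 rows carry a SCARNA symbol and are no members, and 2 of them were well read. SCARNA9, a C/D guide for U2 like SCARNA2, was at 1324 ± 40.0 CPM in WT fraction 3, 39.9 ± 4.22 in WT fraction 7, 93.3 ± 3.25 in D146N fraction 3 and 1385 ± 123 in D146N fraction 7, a pattern close to that of SCARNA2. In the genotype mean it was at 0.52 (edgeR adjusted p 6.56e-11), beside 0.62 for SCARNA2, whereas SCARNA21 was at -0.31 (1.58e-06). Of the 6 such rows tested, 1 rose and 2 fell, where 13.5% of all genes rose and 9.66% fell. Those other than SCARNA9 and SCARNA21 are among the rows with few counts given below. SCARNA21, an H/ACA RNA of 138 bases, was at 151 ± 4.87 and 105 ± 2.66 CPM in WT fractions 3 and 7 and at 89.1 ± 4.94 and 129 ± 5.26 in D146N. After TMM it was at 2.28 in WT and -2.37 in D146N between the sides, the direction of SCARNA16 and the opposite of its own CPM. The remaining 14 rows held at most 45.5 counts in any library.

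Over the 8 group means of log2 CPM, most members ran closely with SCARNA2 or against it. SCARNA17 (r 0.999), SCARNA13 (0.993), SCARNA12 (0.977) and SCARNA10 (0.963) were closest to SCARNA2, while SCARNA16 (-0.989), SNHG20 (-0.932) and SCARNA7 (-0.860) ran against it. SCARNA6 (0.89) was less close to SCARNA2. SCARNA5 was close to neither SCARNA2 (0.577) nor SCARNA16 (-0.462), and among the members ran most closely with SCARNA6 (0.884). Among 5435 genes with a mean of at least 10 CPM, those most like SCARNA16, apart from MIR6516, included RPS27 (r 0.9983), RPL30 (0.9977) and RPL34 (0.9976), all mRNAs of ribosomal proteins. Their ranges were narrower, with RPL30 at 487 CPM in WT fraction 3 and 1432 in WT fraction 7. Most like SCARNA2 were CD276, NFE2L1, INCENP, MDC1 and SF3B2 (r 0.9997 to 0.9998), all protein-coding. These r values rest on 8 points that share library scaling and are descriptions.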

How the data were processed

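RNA abundance was measured by RNA sequencing in 24 libraries, 3 in each of 8 groups of genotype and gradient fraction, grouped by the sample titles. The authors deposited one table of expected counts per versioned Ensembl gene, not normalized, of which 73.3% of the nonzero values were whole. Named in the submitters' processing notes are the counter featureCounts 1.5.1, the aligners HISAT2 2.1.0 and Bowtie2 2.3.5, SAMtools and the build hg38, whose role and options are not given in the sources used here. Fractional values are what dividing a read among features gives, which would tie the values of nested genes. Symbols were assigned to 99.9% of rows.

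CPM are counts scaled per 1 M of the library total. For tests the values were rounded to whole numbers, although whole counts had been assumed when the tests were set. edgeR 4.0.16 in R 4.3.3 tested the genes kept by filterByExpr, 18907 in all, with TMM factors and robust quasi-likelihood dispersions. All 24 libraries entered a model of 8 groups, and p-values were adjusted by Benjamini-Hochberg over every gene in it, at a threshold of 0.05. The biological coefficient of variation was 13.8%. DESeq2 1.42.0, median-of-ratios factors, library totals, no filter, a replicate block, sums over fractions and leaving out single libraries were the alternatives. Where only the library that stands apart was left out of the described contrasts, that was chosen after seeing the data. Simulated counts with known fold changes were used to test the fit. The labels call the replicates biological but do not say what was replicated, so p-values measure the spread between these samples. Totals of 21.2 to 33.0 M counts set the counting precision, and reads were not treated as unique molecules.

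The members and the gene lists were chosen with earlier results of these data known. By rule all members are named, with 6 genes of the list of scaRNA proteins and Cajal body components, their host genes and, for SCARNA16 and SCARNA2, the 5 genes most like each in their group means, of which 1 is not reported here. A further 5 genes of that list were named after their values were seen. SCARNA sequences other than those shown were not used here.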

Additional observations from a re-analysis of the deposited data

Results flagged for a closer look

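For all 10 genes, the CPM of the libraries of fractions 7 and 8 did not overlap with those of fractions 3 and 4. The direction in D146N was the opposite of that in WT. The difference between the genotypes in the log2 ratio of fractions 7 and 8 to fractions 3 and 4 (D146N minus WT) was 9.06 for SCARNA2, 8.28 for SCARNA17, 6.03 for SCARNA13, 3.67 for SCARNA12, 3.59 for SCARNA10, 3.17 for SCARNA6 and 1.88 for SCARNA5. It was -12.13 for SCARNA16, -5.80 for SNHG20 and -1.17 for SCARNA7. These differences were not tested, as the members were chosen on the contrasts they come from. Of the genes tested, 70.9% were lower in WT and higher in D146N without overlap, as the 7 with positive values were, and 2.72% were higher in WT and lower in D146N, as the 3 with negative values were. A genotype effect and a difference in the counting of fractions cannot be told apart.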

How the results depend on the processing

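With library totals in place of TMM, the sign turned in 26 member values, all of SCARNA5, SCARNA6, SCARNA10, SCARNA12 or SCARNA13. In that order of RNAs, leaving out SCARNA13, the log2 fold changes of fractions 7 and 8 against 3 and 4 became -0.19, -1.16, -1.59 and -1.92 in WT and 1.70, 2.01, 2.0 and 1.76 in D146N. D146N against WT became -1.66, -2.0, -1.96 and -1.92 in fraction 3, -1.57, -1.88, -1.90 and -2.01 in fraction 4, 0.27, 1.30, 1.75 and 1.77 in fraction 7, and 0.26, 1.15, 1.58 and 1.65 in fraction 8. SCARNA13 became -2.59 in fraction 3 and -2.72 in fraction 4. The alternative's own construction moves the median gene by several log2 units, as given above. A further 38 member values changed sign without passing a threshold, 24 of them on leaving out a library, and none exceeded 0.19 in size.

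Genes called between neighbouring fractions were 0 throughout, but with no filter they became 5 (WT fraction 4 against 3), 137 (WT fraction 8 against 7), 2 (D146N fraction 4 against 3) and 4 (D146N fraction 8 against 7). In WT fraction 8 against 7, DESeq2 called 11 and library totals 1. Leaving out single libraries gave 0 to 1 in WT fraction 4 against 3, 0 to 340 in WT fraction 8 against 7, 0 in D146N fraction 4 against 3 and 0 to 2 in D146N fraction 8 against 7. The 340 came without replicate 2 and 188 without replicate 1 of WT fraction 8, both of which leave the library that stands apart as one of a pair, and the cause was not tested. No member was called between neighbouring fractions under any of these alternatives. In the genotype mean, leaving out single libraries gave from 4008 genes called of 19630 to 5198 of 19605. The members tested there, which leaves out SCARNA2, SCARNA16 and SNHG20, were called each time. In the sums, where 27.4% of genes were called, they passed but for SCARNA10 at -0.08.

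Libraries with the same replicate number did not deviate together (correlations of -0.110 to 0.0818, none over 0.1), so the numbers were not taken to pair them. With the replicate block 0 genes were called in each neighbouring comparison and 4276 of 18907 in the genotype mean. All 10 members were among these, of which SCARNA2, SCARNA16 and SNHG20 are not counted as evidence. The p-values of the others are not free of the choice of members. Depth limits SCARNA16 on its low sides, at 11 to 27 counts per library.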
